A study of Mus musculus with 3 samples.

Results

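8 genes for cation channels of the transient receptor potential (TRP) and polycystin families were followed in the open chromatin of mouse hearts: Trpv2, Trpv4, Trpc1, Trpc6, Trpm4, Trpm7, Pkd1 and Pkd2. They were taken by name, as channels linked to stretch, pressure or flow. The rule holds no measured value, though the choice was made with earlier results of these data known. All 8 were found among the 21755 protein-coding genes of the autosomes and X in the GENCODE annotation of mm10. The study compared heart tissue of wild-type mice that received vehicle, the anticancer drug sunitinib, which blocks several growth factor receptor kinases, or sunitinib together with Yoda1. Yoda1 is a chemical opener of PIEZO1, another mechanically gated channel. There was 1 library per group, and the sample titles carry 3 months without saying whether this is an age or a time of treatment. The titles name the drug class for the sunitinib heart and Yoda1 alone for the third, so both treatments were read from the design text. How many animals gave a library is not stated in the labels.

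TRP channels are tetramers that let calcium and sodium into the cell, and several of them open in response to membrane stretch, osmotic swelling, warmth or lipid messengers. Polycystin-1 (Pkd1) is a large membrane protein that assembles with the channel polycystin-2 (Pkd2), and this pair is best known from the primary cilium of kidney cells and from polycystic kidney disease. In the heart and its vessels, members of these families are known for flow-induced relaxation in endothelium, for stretch-activated calcium entry in muscle and for calcium signals that lead to hypertrophy and fibrosis.

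Accessibility was measured as unique transposase fragments overlapping a gene's body and the 2 kb upstream of it (its window), or lying within 1 kb of any annotated transcription start, and was expressed as CPM, the count scaled in the usual way to the total fragments of the same nuclei. The vehicle library held 18704581 fragments and 2702 nuclei, and the sunitinib library 23653823 fragments and 3872 nuclei, with median depths of 2156.5 and 2366 fragments per nucleus. The sunitinib plus Yoda1 library held 583792 fragments and 12 nuclei, so it entered only comparisons of whole libraries. Called nuclei of the vehicle and sunitinib libraries shared 22 barcode sequences. In all, 9 cell classes were named from marker genes, and the clusters behind them were built without the genome tiles that overlap the 8 windows, so the classes did not use the channels' own fragments. T lymphoid nuclei made up 9.88% of nuclei under vehicle and 37.5% under sunitinib, and their leading genes included Rag1, which recombines antigen receptor genes in the immature lymphocytes of thymus and bone marrow. Whether all of these nuclei came from heart tissue was not tested. The endocardial class also had lymphatic endothelial markers as its next best list. With 1 library per group no difference can be set against the variation between animals, no test was possible, and each 95% interval reflects counting error alone.

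The start regions of the channels differed in sequence. The RefSeq promoter table (GRCm38.p6, 300 bases per start) matched 7 of the 8 genes, with 3 entries for Trpv2, and 8 short motifs were searched on both strands. The letters were GGGCGG for the GC box, CCAAT for the CCAAT box, TATAAA for the TATA box, CCGGAA for ETS factors, TGGAAA for NFAT, GGAATG for TEAD and AGATAA for GATA, and the motif of NRF1 was searched as well. The ETS, NFAT and TEAD letters share GGAA and can overlap. The promoters shown belong to the 4 genes whose windows stood 1.5-fold apart in the same cell class in both libraries, with both Trpv2 starts because fragments were split between them, and Trpc6 was added because its start carried almost no fragments. Each is the stretch just upstream of the first annotated exon, read 5′ to 3′ along the gene, with motif matches in capitals.
Trpv2, upstream start, chr11:62574286-62574485, plus strand: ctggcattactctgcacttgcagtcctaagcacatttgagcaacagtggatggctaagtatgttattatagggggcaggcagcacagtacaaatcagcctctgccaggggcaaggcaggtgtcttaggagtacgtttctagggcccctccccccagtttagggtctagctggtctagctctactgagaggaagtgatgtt
Trpv2, downstream start, chr11:62575377-62575546, plus strand, with the TEAD letters on the other strand: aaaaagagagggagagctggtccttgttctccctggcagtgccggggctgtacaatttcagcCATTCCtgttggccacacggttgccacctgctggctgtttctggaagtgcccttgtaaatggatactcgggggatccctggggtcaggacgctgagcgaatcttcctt
Trpv4, chr5:114658422-114658621, minus strand, with GC boxes: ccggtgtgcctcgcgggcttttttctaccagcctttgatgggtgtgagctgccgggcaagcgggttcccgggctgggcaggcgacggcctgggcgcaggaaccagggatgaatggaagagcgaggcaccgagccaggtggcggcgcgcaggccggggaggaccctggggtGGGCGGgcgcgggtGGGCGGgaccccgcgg
Trpc1, chr9:95750376-95750575, minus strand, with GC boxes on the other strand: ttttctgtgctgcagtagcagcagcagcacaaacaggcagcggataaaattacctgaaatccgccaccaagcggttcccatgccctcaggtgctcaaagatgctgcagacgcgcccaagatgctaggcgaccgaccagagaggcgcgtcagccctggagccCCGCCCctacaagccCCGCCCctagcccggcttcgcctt
Trpc6, chr9:8543942-8544141, plus strand: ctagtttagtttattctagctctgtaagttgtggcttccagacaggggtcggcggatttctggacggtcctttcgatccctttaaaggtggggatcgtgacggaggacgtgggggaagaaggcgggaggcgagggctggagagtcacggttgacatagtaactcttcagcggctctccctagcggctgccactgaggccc
Pkd2, chr5:104459250-104459449, plus strand, with the TEAD letters: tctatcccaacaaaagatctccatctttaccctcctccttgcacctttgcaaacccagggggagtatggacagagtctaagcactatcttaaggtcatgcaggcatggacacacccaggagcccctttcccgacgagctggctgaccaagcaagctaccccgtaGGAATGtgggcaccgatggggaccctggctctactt
The full 300-base promoter entries of Trpv4 and Trpc1 each held 3 GC boxes and that of Pkd1 held 5. At least 1 was held by 35.7% of the 32851 promoters in the table. TEAD letters, found in the Pkd2 and the downstream Trpv2 promoter entry, occur in 14.7% of promoters. CpG dinucleotides numbered 35 in the Trpm7 promoter, 30 in that of Trpv4, 22 for Trpc1, 18 for Pkd1, 17 for Trpc6 and 9 for Pkd2, against a median of 7. Both entries at the upstream Trpv2 start held 2, and the downstream one held 7. Besides the TEAD letters the downstream entry held 1 match to the NFAT letters (21.4% of promoters). Of the upstream entries, the one starting at base 62574513 held 1 match to the TATA letters (13.6% of promoters), outside the stretch shown. A match of these letters is a description and not a binding site.

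Per kb of window, and over all nuclei of the 9 classes, Pkd1 was the most accessible of the channel genes and Trpc6 the least. Pkd1 had 1.94 CPM per kb under vehicle and 1.996 under sunitinib, at percentiles 71.4 and 72.3 of genes with at least 50 fragments. Trpc6 had 0.0965 and 0.0870, at percentiles 1.03 and 1.40. The other 6 genes lay between 0.439 (Trpc1, vehicle) and 1.42 (Trpv4, vehicle), beside a median gene at 1.16 in both libraries. Of these, Trpv4 was above the median in both libraries. Trpv2 was below it under vehicle (0.911) and at it under sunitinib (1.16), and the rest lay below it in both. The genes also differed in where along the window the fragments fell. In the median gene 56.9% (vehicle) and 56.7% (sunitinib) of window fragments lay within 1 kb of a start, whereas Trpv4 had 18.8% and 18.6% there and Trpc6 7.14% and 2.29%. The remaining 6 channel genes had between 40.5% (Pkd2, sunitinib) and 68.1% (Trpv2, sunitinib).

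**Figure D1:**
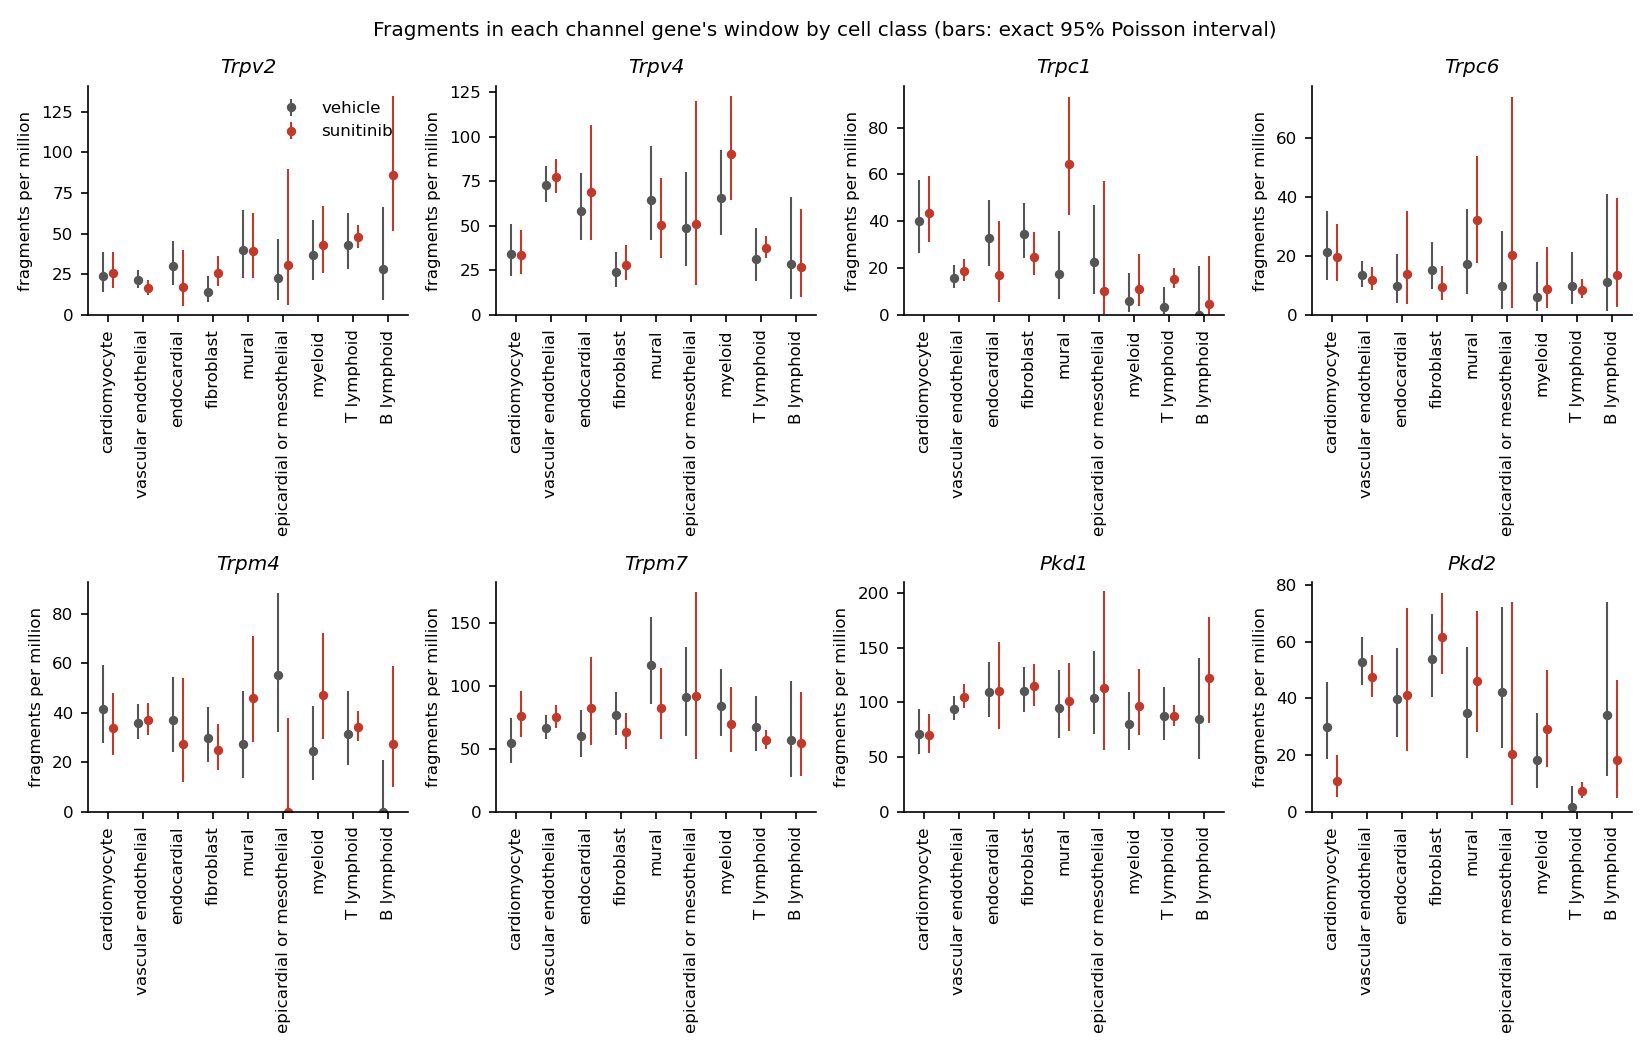
CPM in each channel gene's window (y axis) for the 9 cell classes (x axis) in the vehicle (grey) and sunitinib (red) libraries, with exact Poisson 95% intervals. Trpv4 and Pkd2 are high in vascular endothelial nuclei in both libraries, Trpc1 in cardiomyocytes, and Pkd2 is lowest in T lymphoid nuclei, at 1.65 and 7.27 CPM.

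Trpv4, Pkd2, Trpv2 and Trpc1 each stood at least 1.5-fold above or below the other classes, with an interval off 0, in the same class in both libraries, and the other 4 channels did so in no class in both. In vascular endothelial nuclei 2 of 8 measured channels lay at least 1.5-fold above the other classes in each library, where 7.66% (vehicle) and 11.6% (sunitinib) of all measured genes did. T lymphoid nuclei had 3 of 7 measured channels at least 1.5-fold lower under vehicle and 4 of 8 under sunitinib, beside 19.2% and 19.7% of genes. The share of T lymphoid nuclei differed between the libraries, and these nuclei are part of what every other class was compared with. The part of that share in differences between the 2 sets of ratios was not tested. Cardiomyocytes had 1 of 7 channels higher under vehicle and 2 of 8 under sunitinib, where 11.6% and 11.2% of genes were. They also had 1 of 7 and 2 of 8 at least 1.5-fold lower, beside 25.6% and 32% of genes. Mural nuclei had 2 of 6 higher under vehicle and 1 of 6 under sunitinib, beside 11.8% and 9.51%. All these counts go by the ratio alone, whether or not its interval takes in 0. When the 9 classes were ranked by level, neighbours mostly did not differ beyond counting error. The interval between neighbours lay off 0 for 1 of 8 pairs in 4 of the gene and library combinations, namely Trpv2 and Trpc1 under sunitinib and Trpm4 and Pkd2 under vehicle, and for none in the others.

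Trpv4, an osmotically and mechanically sensitive calcium channel that endothelial cells use to sense flow (chr5:114622152-114658421, minus strand), was more accessible in endothelial nuclei than in the other classes together. Vascular endothelial nuclei held 72.8 CPM under vehicle (211 fragments, 95% interval 63.3 to 83.3) and 77.6 under sunitinib (271 fragments, 68.6 to 87.4). Against the other classes this was a log2 ratio of 0.78 (0.49 to 1.08) and 0.93 (0.69 to 1.18). Fibroblasts were lowest of the well-covered classes, with 24.0 and 28.1 CPM, a log2 ratio of -1.28 (-1.95 to -0.72) and -0.97 (-1.53 to -0.49). Cardiomyocytes had 34.3 and 33.7 CPM and T lymphoid nuclei 31.3 and 37.7, also below the other classes. Endocardial, mural and myeloid nuclei lay near the endothelial level, between 50.6 (mural, sunitinib) and 90.1 CPM (myeloid, sunitinib), with overlapping intervals. Myeloid nuclei ranked above endothelial nuclei under sunitinib, by a log2 ratio of 0.23 (-0.30 to 0.70). Under vehicle they came next after them, at 65.4 CPM.

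Both the Trpv4 start and sites inside the gene carried endothelial fragments. Within 1 kb of any annotated start the log2 ratio of endothelial nuclei to the other classes was 0.34 (-0.36 to 1.03) under vehicle and 0.70 (0.11 to 1.27) under sunitinib. Within 500 bp of the outermost start, whose sequence is shown above, endothelial nuclei held 26 of 46 and 26 of 47 fragments, with ratios of 0.98 (0.09 to 1.91) and 1.38 (0.50 to 2.29). Bins of 500 bp along the gene showed 2 intronic peaks, picked after their values were seen. At 4.0 to 4.5 kb downstream of the outermost start (chr5:114653922-114654421, intron) endothelial nuclei held 22 of 32 fragments under vehicle and 43 of 52 under sunitinib. That is a log2 ratio of 1.71 (0.61 to 2.99) and 3.27 (2.28 to 4.55) to the other classes. T lymphoid nuclei held 0 and 1 fragment there, and cardiomyocytes 0 and 1. The second peak, at 18.5 to 19.0 kb (chr5:114639422-114639921, intron), was shared more widely. Endothelial nuclei held 45 of 77 and 43 of 99 of its fragments, and T lymphoid nuclei 2 and 27. The T lymphoid class as a whole had 606302 fragments under vehicle and 3711514 under sunitinib, so these 2 counts are not on 1 scale.

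**Figure D2:**
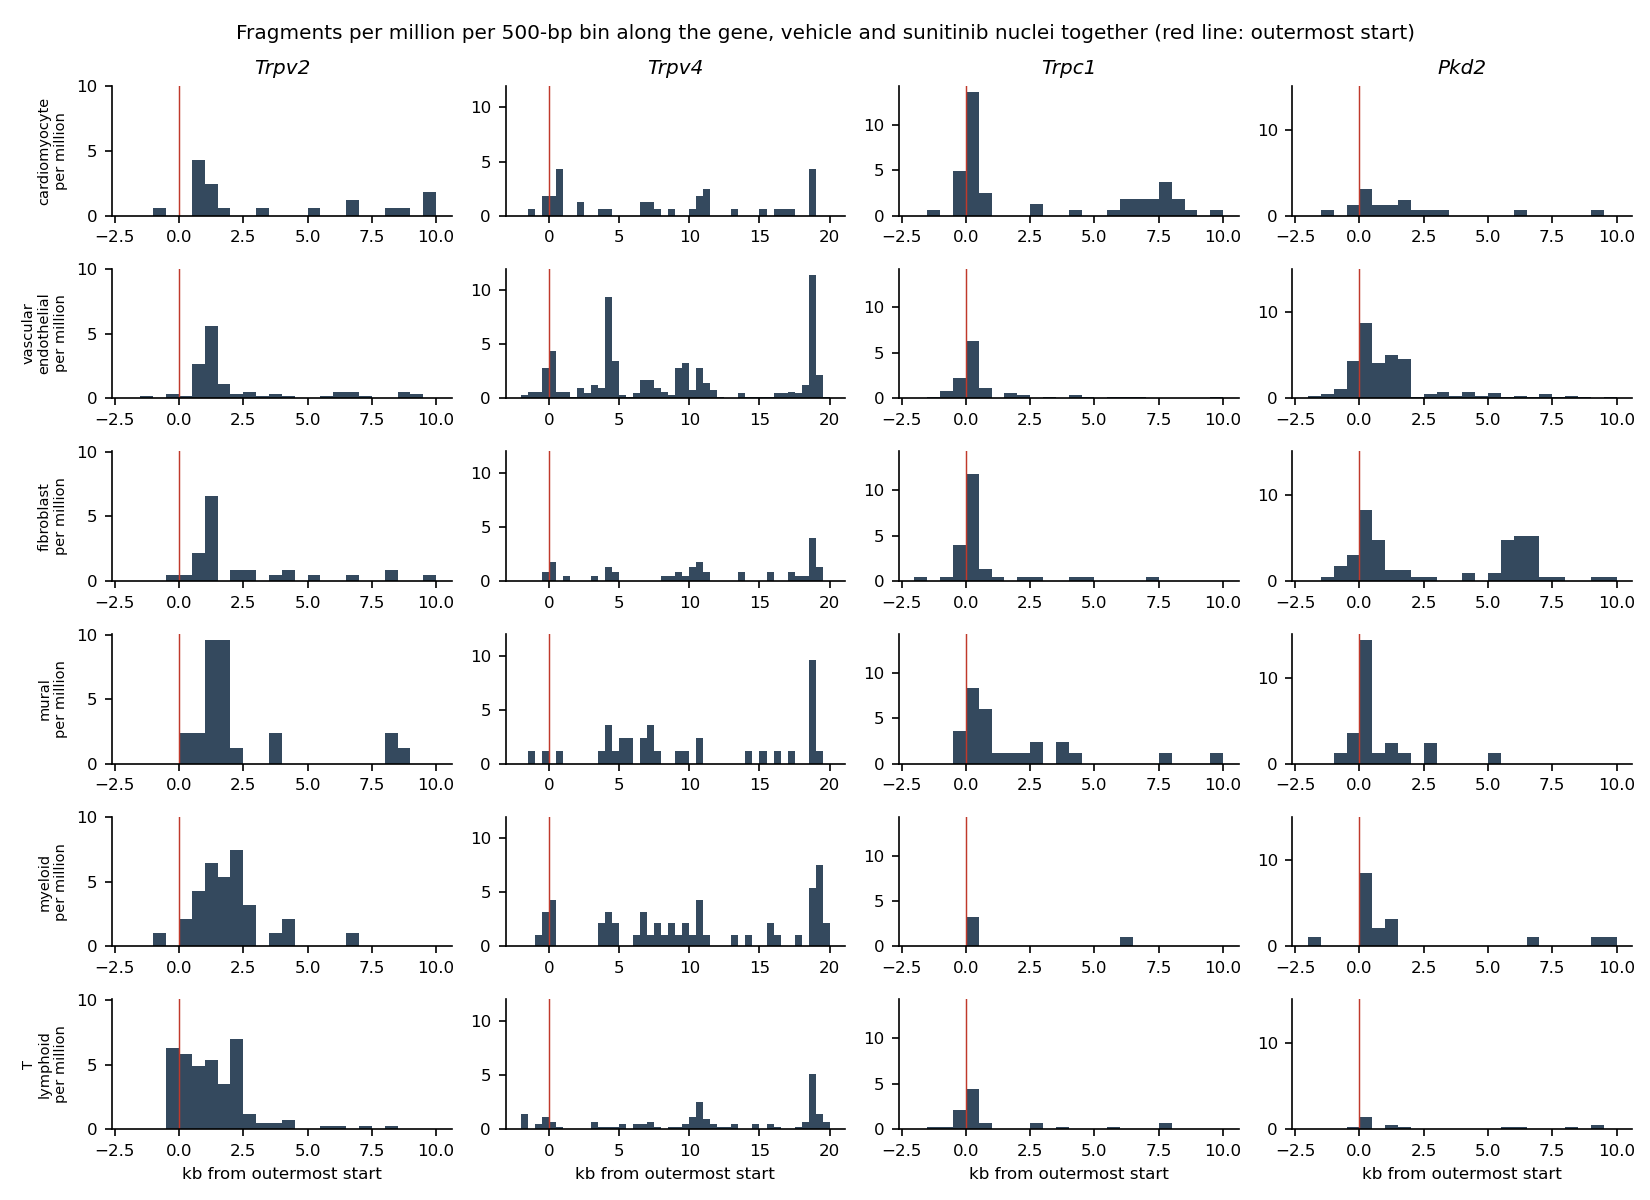
CPM (y axis) in 500-bp bins by distance in kb from the outermost start (x axis, red line at the start) for Trpv2, Trpv4, Trpc1 and Pkd2 in 6 cell classes, with vehicle and sunitinib nuclei added together. Endothelial nuclei show a Trpv4 bin at 4.0 to 4.5 kb, fibroblasts a Pkd2 stretch from 5.5 kb, cardiomyocytes a Trpc1 stretch from 5.5 kb, and T lymphoid nuclei Trpv2 fragments at the upstream start.

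Trpv2, a calcium channel of intracellular membranes and the plasma membrane known from immune cells and from stretched muscle (chr11:62574486-62600515, plus strand), was more accessible in T lymphoid nuclei than in the other classes together. They had 42.9 CPM under vehicle (26 fragments, 28.0 to 62.8) and 47.7 under sunitinib (177 fragments, 40.9 to 55.3). Their log2 ratio to the other classes was 0.86 (0.18 to 1.44) and 0.95 (0.64 to 1.25). Vascular endothelial nuclei had 21.4 and 16.6 CPM, with log2 ratios of -0.40 (-0.87 to 0.05) and -1.27 (-1.71 to -0.87), and only the second lay off 0. The lowest class under vehicle was the fibroblasts, with 14.4 CPM (15 fragments), and under sunitinib they had 25.7 (32 fragments). B lymphoid nuclei held 5 and 19 fragments (28.4 and 86.0 CPM), too few to count as measured. Mural nuclei, at 39.8 and 39.1, and myeloid nuclei, at 36.8 and 42.8, lay near the T lymphoid level with overlapping intervals.

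Trpv2 has 2 groups of annotated starts, 1061 bp apart. The share of fragments at the upstream one was higher in T lymphoid nuclei than in the 7 classes outside the lymphoid. The count was of fragments overlapping 500 bp to either side of each start (chr11:62573986-62574985 and chr11:62575047-62576046), where a fragment spanning both counts in each. How many fragments did so was not counted. The intervals treat every overlap as a separate fragment and are approximate for that reason. This split was noticed in the binned profile and is a description. In T lymphoid nuclei 8 of 15 such overlaps lay at the upstream start under vehicle and 49 of 94 under sunitinib, or 53.3% (Clopper-Pearson 95% interval 26.6 to 78.7) and 52.1% (41.6 to 62.5). In the 7 classes outside the lymphoid the shares were 4 of 64 and 8 of 76, or 6.25% (1.73 to 15.2) and 10.5% (4.66 to 19.7). B lymphoid nuclei had 3 of 4 and 5 of 11, with wide intervals (19.4 to 99.4 and 16.7 to 76.6). The second overlaps that of the 7 classes. Myeloid nuclei had 0 of 7 and 3 of 8, which does not place them with either side. At the downstream start, whose sequence carries more CpG than the upstream one, T lymphoid nuclei (11.5 and 12.1 CPM) were close to the other classes, with log2 ratios of 0.43 (-1.03 to 1.48) and 0.23 (-0.34 to 0.78). At the upstream start they had 13.2 CPM in each library, with log2 ratios of 3.65 (2.005 to 5.36) and 2.82 (1.96 to 3.87).

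**Figure D3:**
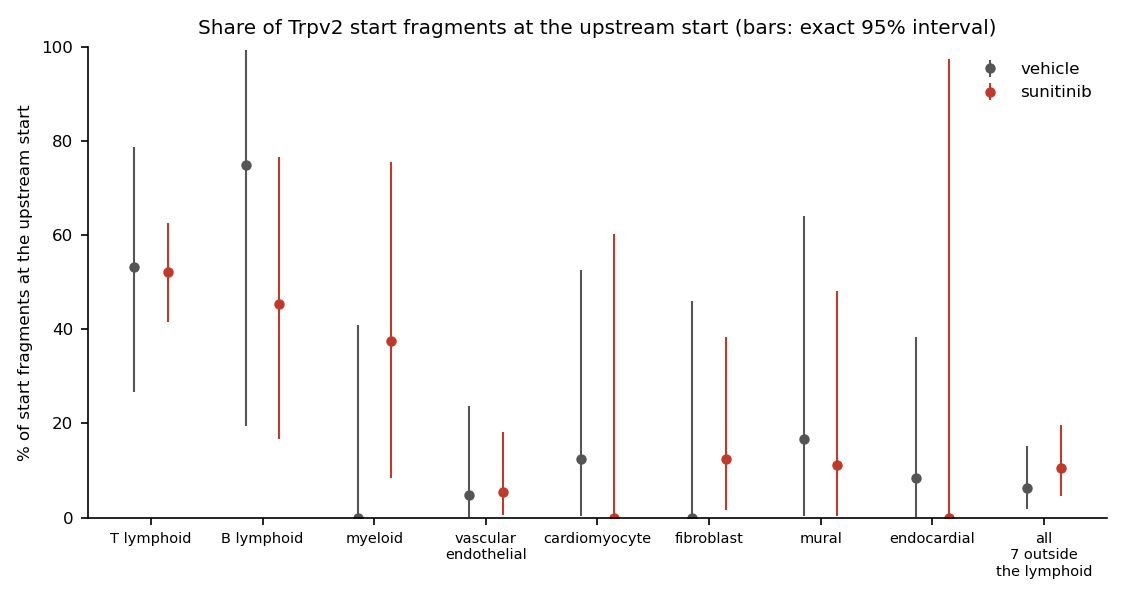
Percent of Trpv2 start fragments that lay at the upstream start (y axis) by cell class (x axis) under vehicle (grey) and sunitinib (red), with exact 95% intervals. T lymphoid nuclei sit at 53.3% and 52.1%, and the 7 classes outside the lymphoid at 6.25% and 10.5%.

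Trpc1, a channel subunit of store-operated and receptor-operated calcium entry (chr9:95705082-95750375, minus strand), was more accessible in cardiomyocytes than in the other classes together. Cardiomyocytes had 39.98 CPM under vehicle (28 fragments, 26.6 to 57.8) and 43.5 under sunitinib (40 fragments, 31.1 to 59.2), a log2 ratio to the other classes of 1.11 (0.45 to 1.70) and 1.18 (0.63 to 1.66). Mural nuclei had 17.4 (7 fragments) and 64.4 (28 fragments), so under sunitinib they ranked above cardiomyocytes, with an interval between the neighbours that took in 0. Fibroblasts had 34.6 and 24.9 CPM, and their ratio lay off 0 under vehicle at 0.92 (0.32 to 1.46) and not under sunitinib at 0.26 (-0.35 to 0.79). T lymphoid nuclei had 3.30 and 15.4 CPM, below the other classes by a log2 ratio of -2.44 (-5.82 to -0.88) and -0.67 (-1.14 to -0.24). Besides the start, a stretch from 5.5 to 9.0 kb inside the gene (chr9:95741376-95744875, which takes in an exon) held fragments mainly of cardiomyocytes, 7 of 9 under vehicle and 13 of 21 under sunitinib. This stretch was picked after its values were seen.

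Trpc6, a diacylglycerol-gated channel tied to calcineurin and NFAT signalling in hypertrophy and fibrosis (chr9:8544142-8680741, plus strand), carried few fragments in any class. Its start region held 7 fragments under vehicle and 3 under sunitinib over the 9 classes, although the promoter holds 17 CpG. The whole window of 138.6 kb, of which 36669 bp are shared with the lincRNA Gm32014, held 98 and 131 fragments. Cardiomyocytes had 21.4 and 19.6 CPM (15 and 18 fragments), with log2 ratios of 0.81 (-0.13 to 1.58) and 0.82 (-0.02 to 1.51), whose intervals both take in 0. The first of these ratios, under vehicle, fell short of the minimum to count as measured. Endothelial nuclei had 13.4 and 12.02 CPM and fibroblasts 15.4 and 9.62. T lymphoid nuclei were lower under sunitinib, at 8.62 CPM (32 fragments) and a ratio of -0.67 (-1.31 to -0.10), and under vehicle, with 6 fragments, Trpc6 was not measured there. The mural ratios, 0.50 (-0.95 to 1.51) and 1.57 (0.61 to 2.33), rest on 7 and 14 fragments, under the minimum.

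Trpm4, a calcium-activated channel that passes sodium and shapes the cardiac action potential (chr7:45302632-45333780, minus strand), had no class whose interval lay off 0 among those measured. Vascular endothelial nuclei had 35.9 and 37.2 CPM, T lymphoid nuclei 31.3 and 34.2, fibroblasts 29.8 and 24.9, and cardiomyocytes 41.4 and 33.7. The window overlaps the gene Hrc, which encodes a calcium-binding protein of the sarcoplasmic reticulum, by 491 bp at its upstream end. A bin beside it, 1.0 to 1.5 kb upstream of Trpm4 (chr7:45334781-45335280, intergenic), held 8 of 15 fragments from cardiomyocytes under vehicle and 4 of 13 under sunitinib, so which of the 2 genes these fragments belong to cannot be told apart.

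Trpm7, a channel for magnesium and calcium joined to a kinase domain and present in most cells (chr2:126791565-126876230, minus strand), carried fragments in every class. Its levels ran from 54.3 (cardiomyocyte) to 117 CPM (mural) under vehicle and from 54.3 (B lymphoid) to 92.3 (epicardial or mesothelial, 9 fragments) under sunitinib. Mural nuclei stood above the other classes under vehicle, by a log2 ratio of 0.78 (0.31 to 1.20), and under sunitinib the ratio was 0.32 (-0.22 to 0.78). Pkd1 (chr17:24549834-24596508, plus strand) was spread over all classes as well. It had between 71.4 (cardiomyocyte) and 110 CPM (endocardial and fibroblast) under vehicle, and cardiomyocytes were lowest again under sunitinib at 69.6. Their log2 ratio to the other classes was -0.43 (-0.89 to -0.02) and -0.51 (-0.91 to -0.15), less than 1.5-fold. The Pkd1 window shares 693 bp with Tsc2, a tumour suppressor that restrains mTOR signalling.

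Pkd2, which encodes the calcium-permeable partner of polycystin-1 (chr5:104459450-104505819, plus strand), was high in endothelial nuclei and fibroblasts and lowest in T lymphoid nuclei in vehicle and sunitinib hearts. Vascular endothelial nuclei had 52.8 CPM under vehicle (153 fragments, 44.7 to 61.8) and 47.5 under sunitinib (166 fragments, 40.6 to 55.3), with log2 ratios to the other classes of 0.66 (0.32 to 0.99) and 1.08 (0.77 to 1.40). Fibroblasts had 53.8 and 61.7 CPM, with ratios of 0.47 (0.02 to 0.89) and 1.23 (0.84 to 1.597). T lymphoid nuclei held 1 fragment under vehicle and 27 under sunitinib, or 1.65 (0.0418 to 9.19) and 7.27 CPM (4.79 to 10.6), with ratios of -4.18 (-10.1 to -2.27) and -2.52 (-3.17 to -1.98). Cardiomyocytes had 29.99 and 10.9 CPM, with ratios of -0.46 (-1.21 to 0.15) and -1.502 (-2.64 to -0.67). Within 500 bp of the start (chr5:104458950-104459949) T lymphoid nuclei held 0 of 606302 fragments under vehicle and 7 of 3711514 under sunitinib. The count of 0 allows up to 4.95 CPM, and endothelial nuclei had 15.5 and 13.7 CPM.

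Pkd2 accessibility in fibroblasts took in a second place. An intronic stretch from 5.5 to 6.5 kb downstream of the start (chr5:104464950-104465949), picked after its values were seen, held 9 of 11 fragments from fibroblasts under vehicle and 16 of 22 under sunitinib. Their log2 ratio to the other classes was 4.52 (2.49 to 8.01) and 4.29 (2.93 to 6.003). Endothelial nuclei held 1 and 3 fragments there. Within 500 bp of the start the 2 classes were close, at 14.4 and 12.8 CPM in fibroblasts.

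Genes whose accessibility across classes was most like that of each channel were taken by Pearson correlation of log2 CPM over 16 points (8 classes in both libraries), which share library depth, so the values are a description. Trpv4 went with Ednrb (an endothelin receptor, r = 0.86), 3110082I17Rik (0.85) and Cct4 (a chaperonin subunit, 0.85). Pkd2 went with Adamts4 (a matrix protease, 0.92), Il33 (an alarmin cytokine, 0.91) and Socs2 (an inhibitor of cytokine signalling, 0.90), and Trpv2 with Cbl (a ubiquitin ligase, 0.87), Commd8 (0.86) and Rest (a transcriptional repressor, 0.86). Trpc1 went with Cpxm2 (0.90), Srrm4 (0.88) and Scube1 (0.88), and Trpc6 with St7 (0.90), Bcl9l (0.88) and Ano1 (a chloride channel, 0.87). For Trpm4 they were Ankrd9 (0.96), Parl (0.95) and Acvr2b (an activin receptor, 0.95), for Trpm7 Csnk1e (a casein kinase, 0.80), Rdh5 (0.80) and Cspg4 (a mural marker, 0.75), and for Pkd1 Sntb2 (0.87), Ksr1 (0.85) and Utp4 (0.83). The median over eligible genes lay between -0.21 (Trpc1) and 0.13 (Trpv2). Among the channels themselves the highest correlation was 0.75, between Trpc1 and Trpm4, and that of the partners Pkd1 and Pkd2 was 0.44. Trpc1 and Trpm4 both held 0 fragments in B lymphoid nuclei under vehicle, 1 of the 16 points, and how far their correlations rest on it was not tested.

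Sunitinib was compared with vehicle within each class, for channels whose 2 libraries together gave 50 fragments or more and would each be expected to give 10. None of the measured channels differed by 1.5-fold or more in any class. In vascular endothelial nuclei all 8 were measured and 0 passed, beside 3.25% of 14665 measured genes. Cardiomyocytes had 0 of 5 (9.91% of genes), fibroblasts 0 of 6 (7.48%), T lymphoid nuclei 0 of 5 (7.95%), endocardial nuclei 0 of 3 (13.2%), myeloid nuclei 0 of 3 (10.9%) and mural nuclei 0 of 2 (9.17%). No channel was measured in epicardial or mesothelial or in B lymphoid nuclei. At these background shares a count of 0 among so few genes says nothing particular about the channels.

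In vascular endothelial nuclei the channels' median log2 ratio was 0.07 and that of all measured genes 0.04. Trpv4 had 72.8 CPM under vehicle and 77.6 under sunitinib, a log2 ratio of 0.09 (-0.17 to 0.36). Pkd1 had 94.1 and 105, a ratio of 0.16 (-0.07 to 0.39), and Trpm7 66.9 and 75.6, a ratio of 0.17 (-0.10 to 0.45). Pkd2 had 52.8 and 47.5, or -0.15 (-0.48 to 0.18). The 4 channels with fewer fragments ran from -0.36 (-0.91 to 0.17) for Trpv2 to 0.23 (-0.34 to 0.81) for Trpc1. Each of these 8 intervals takes in 0, and those of Trpv4, Trpm4, Trpm7, Pkd1 and Pkd2 lie wholly within 1.5-fold either way. With nuclei thinned to 1000 fragments Pkd1 passed 1.5-fold, at 0.66 (0.26 to 1.07) from 136 and 85 fragments, and within 1 kb of its starts the ratio was 0.36 (0.06 to 0.66).

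In cardiomyocytes the levels of the 5 measured channels were Trpm7 54.3 and 76.1 CPM, Pkd1 71.4 and 69.6, Trpc1 39.98 and 43.5, Trpv4 34.3 and 33.7, and Trpm4 41.4 and 33.7. The highest log2 ratio was that of Trpm7, 0.48 (-0.10 to 1.10). It passed 1.5-fold when nuclei needed at least 3000 fragments, at 0.86 (0.11 to 1.69) from 49 and 21 fragments, and when the 5% of nuclei with most fragments were left out, at 0.60 (-0.07 to 1.35). Summed fragments of the 10 cardiomyocyte markers differed by a log2 ratio of -0.05 (-0.11 to 0.02) in this class, and 0 of them were at 0 in either library.

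In fibroblasts Pkd2 had 53.8 and 61.7 CPM, a ratio of 0.20 (-0.32 to 0.72), and Trpc1 34.6 and 24.9, a ratio of -0.47 (-1.22 to 0.26). Trpc1 passed 1.5-fold there with at least 3000 fragments per nucleus, at -0.74 (-1.603 to 0.12), and Trpm7 with fragments shorter than a nucleosome, at -0.69 (-1.58 to 0.15), and in thinned nuclei, at -0.62 (-1.57 to 0.24). Summed T lymphoid markers in the fibroblast class had a ratio of 0.81 (0.55 to 1.08), with 9 of 10 higher, none at 0 and 168 and 296 CPM, and their part in these values was not tested. In endocardial nuclei Trpm7 had 59.9 and 82.6, a ratio of 0.48 (-0.32 to 1.22), and passed at 0.68 (-0.16 to 1.49) with at least 3000 fragments. There the summed lymphatic endothelial markers had a ratio of 0.55 (0.23 to 0.86; 7 of 8 higher, 318 and 464 CPM, 1 marker at 0 in each library) and the vascular endothelial markers 0.26 (0.06 to 0.44), and their part was not tested. In T lymphoid nuclei Trpv2 had 42.9 and 47.7, a ratio of 0.13 (-0.45 to 0.81). Within 1 kb of start sites Trpm7 there had 52.8 and 30.2 CPM (32 and 112 fragments), a ratio of -0.82 (-1.38 to -0.19), past 1.5-fold, where 4.7% of genes were lower. Over the whole window it had 67.6 and 57.1, a ratio of -0.26 (-0.73 to 0.28). Trpm4 starts had 14.8 and 25.1 CPM (9 and 93 fragments), a ratio of 0.69 (-0.23 to 1.93), where 5.98% of genes were higher.

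**Figure D4:**
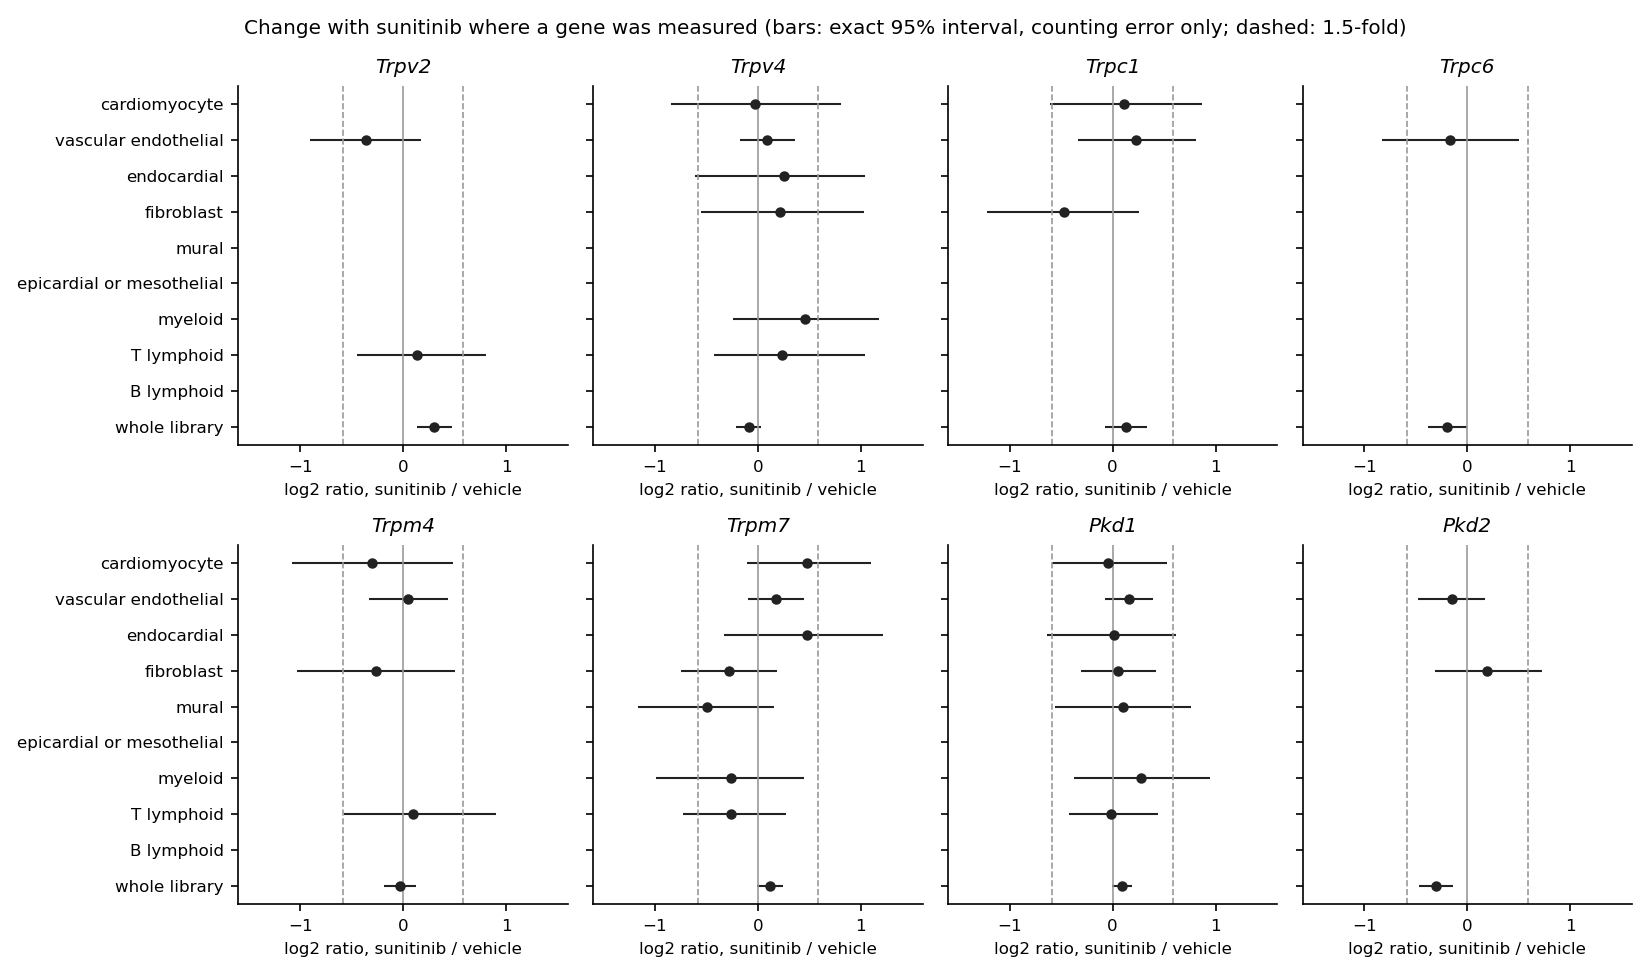
Log2 ratio of sunitinib to vehicle (x axis) by cell class and for the whole library (y axis) for each channel, with exact 95% intervals for counting error, shown where a channel was measured. No point lies beyond the dashed lines at 1.5-fold, and the whole-library intervals of Trpv2 and Pkd2 lie off 0 on opposite sides.

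Some differences below the minimum count were larger. Pkd2 had 21 fragments in cardiomyocytes under vehicle and 10 under sunitinib, 29.99 and 10.9 CPM, a log2 ratio of -1.43 (-2.71 to -0.31). At its starts the counts were 6 and 5, a ratio of -0.63 (-2.71 to 1.32). Trpc1 had 7 and 28 fragments in mural nuclei, 17.4 and 64.4 CPM, a ratio of 1.81 (0.66 to 3.33), and 1 and 15 of these lay at its starts. Trpc1 also had 2 and 57 fragments in T lymphoid nuclei, a ratio of 1.91 (0.30 to 5.30). Trpv2 had 5 and 19 in B lymphoid nuclei, a ratio of 1.501 (0.13 to 3.38). In that class the summed T lymphoid markers were higher by 1.12 (0.66 to 1.61; 9 of 10 higher, 301 and 657 CPM) and the B lymphoid markers had -0.70 (-1.05 to -0.36; 0 of 9 higher), and their part in the Trpv2 values was not tested. Trpm4 had 17 fragments in epicardial or mesothelial nuclei under vehicle, or 55.2 CPM, and 0 under sunitinib, which allows up to 30.8 CPM. These were singled out after their values were seen from all channel and class pairs, and with such counts they are values to look at again rather than differences between treatments.

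Over whole libraries all 8 channels were measured, and again 0 passed 1.5-fold, beside 4.32% of 19382 genes. Trpv2 had 24.1 CPM under vehicle (450 fragments) and 29.7 under sunitinib (702), a log2 ratio of 0.30 (0.13 to 0.48). Pkd2 had 33.5 (625) and 27.1 (640), a ratio of -0.30 (-0.47 to -0.14). Trpc6 had 23.0 and 20.1, a ratio of -0.20 (-0.39 to -0.00), and the intervals of the other 5 took in 0. The median of all measured genes was 0.07. T lymphoid markers also differed between the whole libraries. Their summed level was 264 CPM under vehicle and 491 under sunitinib, all 10 were higher and 0 were at 0 in either library. In called nuclei outside the lymphoid classes, with the unnamed clusters included, the Trpv2 ratio was 0.02 (-0.28 to 0.32). That of Pkd2 was -0.03 (-0.24 to 0.19) and that of Trpc6 0.02 (-0.34 to 0.37). The unnamed clusters of low start-site enrichment and of high fragment number held 427781 and 486758 fragments under vehicle. Under sunitinib they held 753751 and 1336155. Among barcodes holding fewer than 500 fragments, too few to be taken for nuclei, Trpv2 had 0.11 (-0.16 to 0.38) and Pkd2 -0.49 (-0.77 to -0.21). The part of T lymphoid nuclei in the whole-library values was not tested.

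At start sites the median log2 ratio of all measured genes over whole libraries was 0.19 on the same scaling, and not 0.07 as over windows. Trpv2 starts had 11.8 and 17.3 CPM, a ratio of 0.55 (0.31 to 0.79), and Pkd2 starts 13.4 and 10.5, a ratio of -0.35 (-0.61 to -0.09). Relative to that median the other measured starts, from -0.12 (Trpv4) to 0.30 (Trpc1), lay closer to the middle, and Trpc6 was not measured, with 27 and 22 fragments. Scaled to fragments at start sites, the window ratios were 0.10 for Trpv2 and -0.50 for Pkd2 beside a median of -0.13 for all genes. In bulk values of this kind, fewer cells of a type and less open chromatin per cell cannot be told apart.

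The library of sunitinib with Yoda1 was shallow. Of its fragments, 42.1% shared start and end with another fragment, and the 258020 supported by at least 100 read pairs did so in 0.288%, so these were used. They held between 7 and 24 fragments per channel window. Pkd1 had 93.0 CPM (24 fragments, 59.6 to 138), beside 87.4 under sunitinib and 82.1 under vehicle. Trpm7 had 58.1 (15 fragments), beside 54.4 and 50.2, and Trpv4 had 46.5 (12 fragments), beside 48.5 and 51.6. These 3 channels were measured, and 0 passed 1.5-fold against sunitinib (25.4% of 5948 genes did) or against vehicle (21.3% of 5343). Their log2 ratios to sunitinib were 0.12 (-0.56 to 0.67), 0.14 (-0.75 to 0.82) and -0.00 (-1.02 to 0.75), and to vehicle 0.21 (-0.47 to 0.76), 0.26 (-0.63 to 0.94) and -0.09 (-1.11 to 0.66). Both comparisons share the Yoda1 library. The intervals reach past 1.5-fold on at least one side, so a difference of that size was not detectable at this depth.

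Trpc1, Trpc6, Trpm4 and Pkd2 had 7 fragments each and Trpv2 had 10, with no measured ratio. With all fragments of that library, copies included, Trpc6 passed 1.5-fold at 1.07 (0.38 to 1.63) against sunitinib and 0.87 (0.19 to 1.44) against vehicle, from 24 fragments. Trpm4 passed at -0.89 (-2.03 to -0.08) and -0.93 (-2.06 to -0.11), from 10 fragments, and Trpc1 at 0.59 (-0.27 to 1.27) against vehicle. Summed cardiomyocyte markers were higher in this library than under sunitinib by a log2 ratio of 1.05 (0.90 to 1.19), with 10 of 10 markers higher, and T lymphoid markers lower by a ratio of -1.27 (-1.71 to -0.89), with 2 of 10 at 0. Their part in the channel values was not tested.

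**Figure D5:**
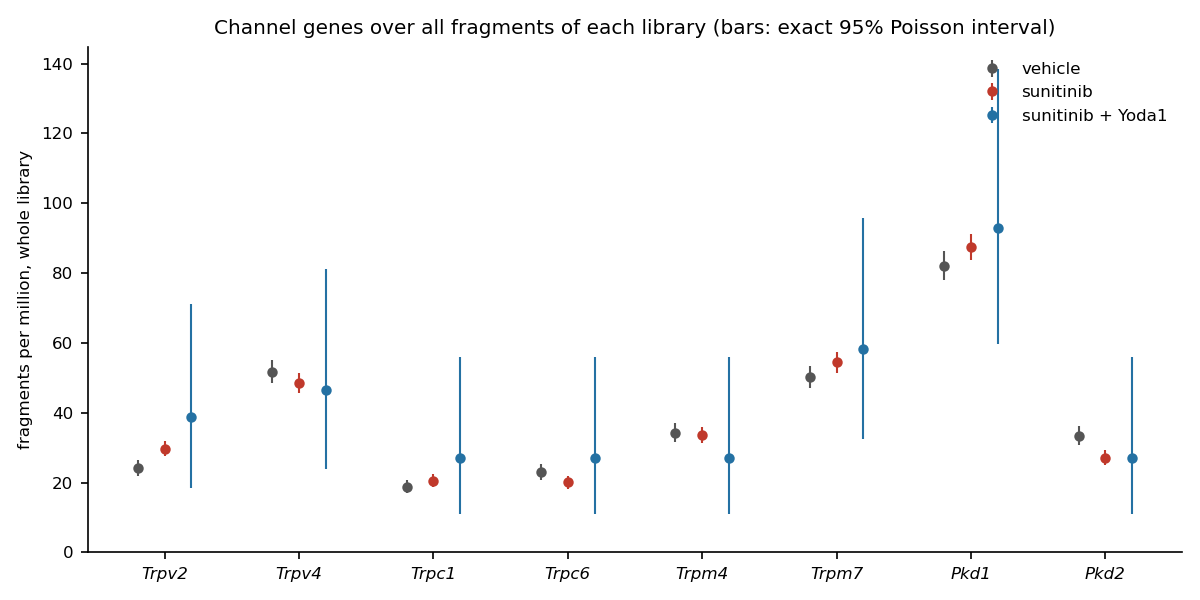
CPM over whole libraries (y axis) for the 8 channels (x axis) under vehicle (grey), sunitinib (red) and sunitinib with Yoda1 (blue, fragments with at least 100 read pairs), with exact Poisson 95% intervals. The Yoda1 intervals rest on 7 to 24 fragments and take in the levels of both other libraries for each channel.

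Related genes were summarised from 5 lists, to be read against the shares of all genes past 1.5-fold given above (3.25% in vascular endothelial nuclei, 9.91% in cardiomyocytes, 4.32% over whole libraries). Of 19 other TRP genes, 14 were measured in vascular endothelial nuclei and 1 passed 1.5-fold, Trpm6 (a magnesium channel close to Trpm7), with 23.1 CPM under vehicle and 13.7 under sunitinib, a log2 ratio of -0.75 (-1.32 to -0.19). In cardiomyocytes 0 of 7 passed. Among 12 other mechanosensitive channels 8 were measured in cardiomyocytes and 1 passed, Piezo1, the target of Yoda1, with 51.4 and 78.3 CPM, a ratio of 0.60 (0.01 to 1.23). In endothelial nuclei 0 of 12 passed. Of 20 genes of calcium entry and calcineurin signalling, 17 were measured in cardiomyocytes, where Itpr3 (an inositol trisphosphate receptor) had a ratio of 0.59 (-0.10 to 1.35) and Ppp3cb (a calcineurin catalytic subunit) -0.66 (-1.51 to 0.17). In endothelial nuclei 0 of 20 passed, and the lowest was Nfatc2 at -0.35 (-0.57 to -0.12). Over whole libraries Nfatc3, which encodes an NFAT transcription factor, had 61.6 and 97.9 CPM, a ratio of 0.67 (0.57 to 0.77). In called nuclei outside the lymphoid classes, with the unnamed clusters included, its ratio was 0.19 (0.02 to 0.37). Of 6 other polycystin genes and 10 genes of the polycystin complex and cilium, 0 passed in cardiomyocytes (2 and 6 measured) or in endothelial nuclei (5 and 10 measured).

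In the other 5 classes with a measured channel, between 7.48% (fibroblasts) and 13.2% (endocardial nuclei) of all genes passed 1.5-fold. Of the calcium list, 1 of 15 passed in endocardial nuclei, Rcan2 (a calcineurin regulator) at -1.49 (-2.84 to -0.49), and 1 of 19 in T lymphoid nuclei, Rcan2 again at 1.05 (0.20 to 2.21). The same list had 2 of 20 in fibroblasts, led by Itpr3 at 0.71 (0.17 to 1.29), 2 of 14 in mural nuclei, led by Nfatc3 at 1.03 (0.19 to 1.97), and 2 of 14 in myeloid nuclei, led by the calcium sensor Stim1 at 0.72 (0.14 to 1.32). Other TRP genes past 1.5-fold were Trpm1 in endocardial nuclei (1 of 3) at 0.65 (0.01 to 1.27), Trpc4 in mural nuclei (1 of 4) at -0.73 (-1.54 to 0.04), and in T lymphoid nuclei (2 of 8) Mcoln3 at 0.59 (-0.21 to 1.64) and Trpm3 at -0.77 (-1.15 to -0.36). Among other mechanosensitive channels Tmem63a passed in endocardial nuclei (1 of 5) at 0.67 (-0.20 to 1.502) and Asic1 in fibroblasts (1 of 8) at 0.92 (0.07 to 1.89). Of the polycystin complex and cilium list, 1 of 10 passed in fibroblasts, Pkhd1 (the protein of recessive polycystic kidney disease) at -0.5998 (-1.23 to 0.02), and 2 of 10 in T lymphoid nuclei, led by Ganab (a glucosidase of the endoplasmic reticulum) at 1.31 (0.24 to 2.90). No other polycystin gene passed in these 5 classes.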

How the data were processed

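Open chromatin was measured in nuclei of wild-type mouse heart as one arm of multiome libraries, with RNA not used here. The deposited fragment lists came from cellranger-arc on mm10, per the file headers, in version 2.0.0 for vehicle and sunitinib and 2.0.2 for sunitinib plus Yoda1. Each line of the deposited files gives a barcode, a fragment and the count of its read pairs. Per the submitters' processing notes, Cell Ranger and Signac were used.

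Nuclei were barcodes with at least 1000 fragments and a start-site enrichment of at least 4. Nucleosome-length fragments had to be under 4 times the shorter ones. No doublet caller was run. Clusters came from 60000 tiles of 5 kb outside the members' windows (30 components, 20 neighbours, Leiden resolution 0.8). A class needed 3 markers at least 2-fold above other nuclei. Clusters of low start-site enrichment (195 and 260 nuclei) and of high fragment number (30 and 70) stayed unnamed and outside the classes. Values for called nuclei outside the lymphoid classes take these clusters in.

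Fragment counts were summed by class and library. Log2 ratios had 0.5 counts added, with conditional exact binomial 95% intervals, and CPM uses all fragments of the same nuclei on autosomes and X. Levels have exact Poisson intervals. The limit given for a count of 0 is of another kind, fixed at 3 counts, and is lower than the upper end of such an interval. PCR copies were collapsed by the authors' pipeline, and intervals and limits hold for counting error. Independent Poisson counts were simulated for vascular endothelial nuclei (14681 genes measured). Of genes changed 2-fold, 96.3% passed 1.5-fold, 1.86% of unchanged genes did, and 95.8% of intervals held the true ratio. Such counts carry counting error alone. These shares therefore check the calculation and say nothing of the spread between nuclei, libraries or animals.

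Named genes were all 8 members, the 3 genes most correlated with each over classes (at least 500 fragments, over 100 kb away), and the highest and lowest measured gene of each related list, given for sunitinib against vehicle where they passed 1.5-fold in a class with a measured member or over whole libraries, with Nfatc2 in endothelial nuclei added. Members, lists and markers were chosen with earlier results of these data known. Bins, stretches and start-site splits were chosen after seeing the profiles. Python 3.11.15, numpy 2.4.6, pandas 2.3.3, scipy 1.17.1, scikit-learn 1.9.0, leidenalg 0.10.2 and igraph 0.11.9 were used.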

Additional observations from a re-analysis of the deposited data

How the results depend on the processing

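No paired analysis was possible because each group had 1 library, and leaving out a replicate was not possible for the same reason. The count of channels past 1.5-fold was 0 in each class and library comparison as reported. With at least 3000 fragments per nucleus it was 1 in cardiomyocytes (Trpm7), 1 in endocardial nuclei (Trpm7) and 1 in fibroblasts (Trpc1). Without the 5% of nuclei with most fragments it was 1 in cardiomyocytes. With nuclei thinned to 1000 fragments it was 1 in vascular endothelial nuclei (Pkd1, 0.66) and 1 in fibroblasts (Trpm7, -0.62), and with fragments shorter than a nucleosome 1 in fibroblasts (Trpm7, -0.69). Within 1 kb of start sites it was 2 in T lymphoid nuclei (Trpm4, 0.69, and Trpm7, -0.82). With all fragments of the Yoda1 library it was 2 against sunitinib and 3 against vehicle, and with 1 fragment per start and end 1 and 2. With all fragments those channels were Trpc6 (1.07 and, against vehicle, 0.87), Trpm4 (-0.89 and -0.93) and Trpc1 (0.59, against vehicle), and with 1 fragment per start and end Trpm4 (-0.65 and -0.66) and Trpc6 (0.78, against vehicle). In the other 68 pairs of comparison and setting the count was 0. The cause of these changes was not tested. The share of all genes past 1.5-fold was not counted in these settings, except at start sites. There it was 10.7% in T lymphoid nuclei. Settings also change how many genes are measured, as in cardiomyocytes, with 7638 as reported and 3808 at 3000 fragments per nucleus. Without such a share these counts describe the settings and are no result about the channels.

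The Trpv4 log2 ratio of a class to the others moved to 0.34 (vascular endothelial) and -0.60 (fibroblast) under vehicle within 1 kb of start sites. Of such class values, 89 moved by less than their interval and 7 by more. Per fragments at start sites the whole-library median of all genes moved from 0.07 to -0.13, and that of the channels from 0.03 to -0.17. Depth is a limit: outside endothelial nuclei intervals of single channels often spanned more than 1.5-fold either way.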

Other observations

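Other genes of these families, outside the 8 channels, had class patterns that were alike in both libraries. They were picked after their values were seen, and the log2 ratios to the other classes have intervals for counting error. Trpv1, the capsaicin receptor known from sensory neurons, had 27.9 CPM in vascular endothelial nuclei under vehicle and 34.6 under sunitinib, log2 ratios of 1.33 (0.81 to 1.88) and 2.01 (1.57 to 2.48). Trpv3, a warmth-sensitive channel of skin, had 45.1 and 36.1 CPM in fibroblasts, ratios of 1.62 (1.07 to 2.13) and 1.61 (1.07 to 2.11). The polycystin relative Pkd1l2 had 69.5 and 87.8 in myeloid nuclei, ratios of 1.62 (1.03 to 2.15) and 1.99 (1.44 to 2.47).

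In T lymphoid nuclei the endolysosomal channel gene Mcoln2 had 67.6 and 76.0 CPM, ratios of 1.13 (0.60 to 1.61) and 1.34 (1.08 to 1.5999), and Pkd2l2 had 57.7 and 56.0, ratios of 1.35 (0.76 to 1.87) and 1.19 (0.90 to 1.49), whereas Pkd2 was lowest there. Mcoln2 was at 85.1 CPM in B lymphoid nuclei under vehicle, from 15 fragments. Cardiomyocytes had Trpc4, a partner of Trpc1 in heteromeric channels, at 44.3 and 41.3 CPM, ratios of 0.90 (0.28 to 1.45) and 1.28 (0.72 to 1.78), with mural nuclei higher at 91.9 and 55.2. They had the oxidant-sensitive Trpm2 at 42.8 and 33.7, ratios of 0.78 (0.14 to 1.32) and 0.71 (0.09 to 1.24), with myeloid nuclei higher at 67.4 and 99.1. Mural nuclei had Trpm3 at 326 and 276 CPM, ratios of 0.69 (0.42 to 0.95) and 0.82 (0.53 to 1.08).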
